A study of Arabidopsis thaliana with 7 samples.

Results

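The 5 genes described here are DML3 (AT4G34060), AT1G77230, MIR402 (AT1G77235), URT1 (AT2G45620) and RPL24A (AT2G36620), at 4 places in the nuclear genome of Arabidopsis thaliana. MIR402 lies within AT1G77230, so both share a place and, in part, the same peaks. They were chosen as the genes other than DDB2 that carry a nuclear peak wider than 600 bp, out of 37887 nuclear genes in the annotation table. Since they were chosen by peak width in these same lists, the widths and covered lengths below are a description and carry no test. A total of 21 peaks overlapped the 4 places, of 2374 nuclear peaks in 6 libraries.

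The libraries come from immunoprecipitation of DNA with an antibody against cyclobutane pyrimidine dimers (CPDs). All plants were wild-type Col-0 seedlings 3 weeks old, grown with 16 h of light and 8 h of darkness. In 4 libraries the plants were treated with UV-C at 3000 J per square metre, 2 libraries were labelled as not treated, and 1 input library made without antibody is not analysed here on its own. The protocol text of the labels gives the UV-C dose for every sample, the untreated ones included, so the groups rest on the sample titles and the treatment entry, which both read no UV for those 2. No label says whether replicates were separate cultures, nor how long after exposure the plants were taken.

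CPDs are bonds that UV light forms between neighbouring pyrimidines of one DNA strand. Plants reverse them with photolyases or cut them out by nucleotide excision repair, in which DDB2 recognises the lesion. DML3 encodes a DNA glycosylase of the DEMETER family, which removes 5-methylcytosine by base excision, and MIR402 encodes a microRNA reported in Arabidopsis to target the DML3 transcript. URT1 adds uridines to the ends of messenger RNAs, and RPL24A encodes a protein of the large ribosomal subunit.

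Lists held 228 to 677 peaks, 177 to 520 of them nuclear, and the number of reads behind them is unknown. The narrowest width a list allowed was 122 to 147 bp, and 79.9% to 89.4% of the nuclear peaks of a list had it. UV replicates 1 and 4 also had the most chloroplast sequence under peaks, 46321 and 42322 bp, against 3237 to 12491 bp in the other libraries. All 7 nuclear peaks wider than 600 bp lay in these same 2 libraries, 6 in UV replicate 1 and 1 in UV replicate 4. What part sequencing depth or these libraries have in the widths was not tested.

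At DML3, UV replicate 1 had 6 peaks that together covered 4155 bp, 68.6% of the gene. UV replicates 2, 3 and 4 and untreated replicate 1 had none, and untreated replicate 2 had 1 peak of 122 bp. Peaks therefore covered most of the length of the gene in 1 UV library and little or none of it in the other 5.

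In UV replicate 1 the row of peaks on chromosome 4 of TAIR10 ran from 16313654 to 16319329. Its 3 widest peaks were neighbours, at 16314385 to 16315453 (1069 bp), 16315631 to 16316771 (1141 bp) and 16316954 to 16318259 (1306 bp). They were separated by 177 and 182 bp without a peak. Smaller peaks of 147, 175 and 317 bp flanked them, with gaps of 584 bp on the low-coordinate side and 70 and 508 bp on the other. The break-up into 6 peaks set DML3 apart from the 3 other places, each of which had a single wide peak.

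By the authors' score, the 3 wide DML3 peaks ranked 43rd, 9th and 15th of 562 in that list, in order of position. The 147 bp peak, of the narrowest width in the list, ranked 261st. The untreated peak, at 16317867 to 16317988, also had the narrowest width of its list. Its score rank of 143 of 587 was tied with other peaks, and it scored higher than only 31.7% of that list. It lay wholly inside the third wide peak of UV replicate 1. The covered length was 1039 ± 2078 bp with UV (SD, n = 4) and 61 ± 86.3 bp without (SD, n = 2), a difference of 978 bp that became -61 bp without UV replicate 1.

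**Figure D1:**
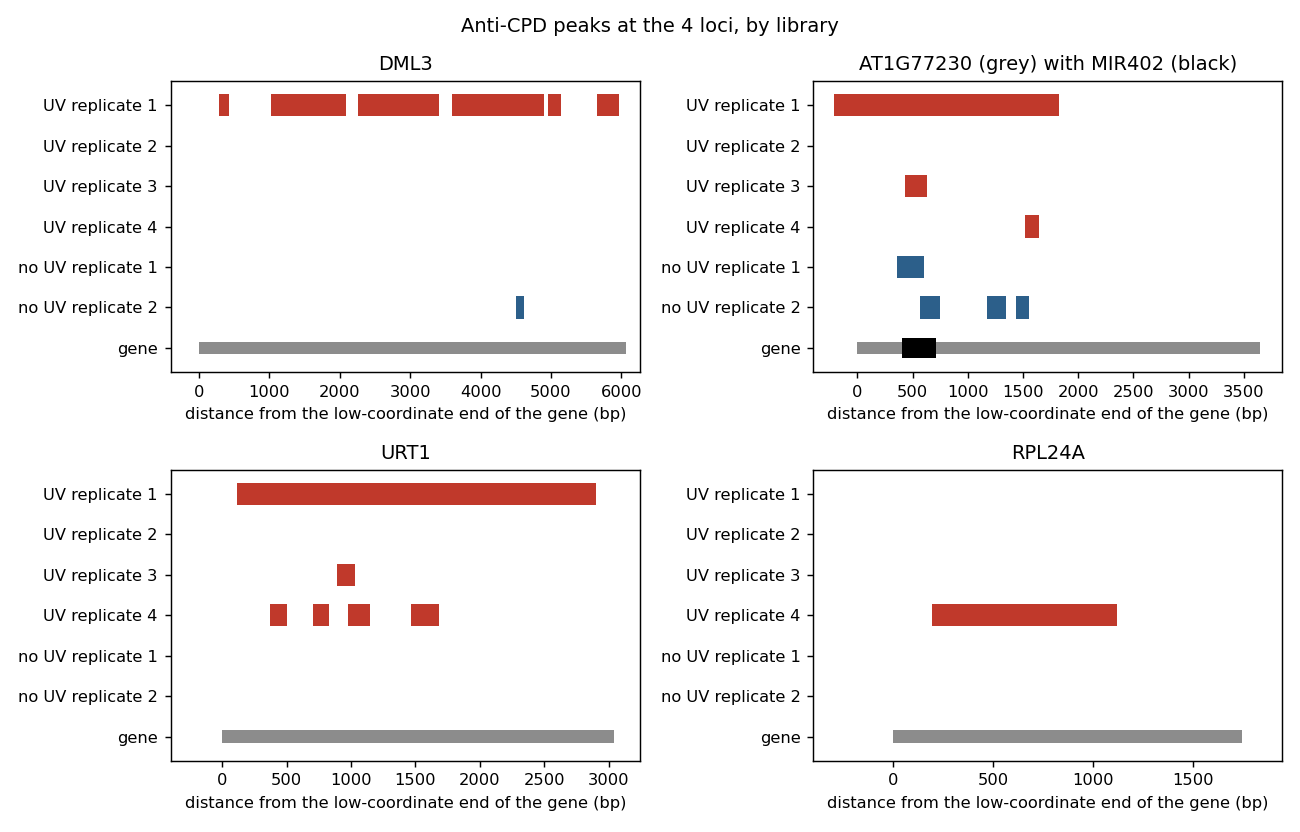
Peaks of each library (rows; red with UV, blue without) drawn to scale along each gene (grey bar, MIR402 in black), with distance from the low-coordinate end of the gene in bp on the horizontal axis. UV replicate 1 spans most of DML3, in 6 pieces, and of URT1, in 1 piece, UV replicate 4 alone marks RPL24A, and AT1G77230 has a peak in 5 of the 6 libraries.

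AT1G77230 carried a peak in more libraries than any other of the 5 genes. In UV replicate 1 a single peak of 2032 bp on chromosome 1, from 29015909 to 29017940, covered 49.9% of the gene and began 211 bp outside its low-coordinate end. UV replicate 3 had a peak of 196 bp at 29016553 to 29016748, and UV replicate 4 one of 124 bp at 29017642 to 29017765. Untreated replicate 1 had a peak of 245 bp at 29016482 to 29016726. Untreated replicate 2 had 3, of 184, 175 and 122 bp, starting at 29016684, 29017295 and 29017555. UV replicate 2, the shortest list, had none.

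Covered lengths here were thus 2032, 0, 196 and 124 bp in UV replicates 1 to 4 and 245 and 481 bp in the untreated libraries. Both untreated libraries were above 3 of the 4 UV libraries and below UV replicate 1, so the groups overlapped. The means were 588 ± 966 bp with UV (SD, n = 4) and 363 ± 167 bp without (SD, n = 2). Their difference of 225 bp became -256 bp without UV replicate 1. It lay between 107 and 421 bp when any other library was left out, moving by more than 1.5 times each time.

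Peaks of the 4 libraries without a wide peak on this gene differed in how they ranked. The 184 bp peak of untreated replicate 2 scored higher than 97.3% of its list and that of UV replicate 3 higher than 92.4%. By contrast the 245 bp peak of untreated replicate 1 scored higher than only 18.2% of its list, although it was wider than 96.8% of it. In UV replicate 1 the wide peak had the 3rd highest score of 562.

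MIR402 itself was under a peak in 4 libraries, 2 with UV and 2 without. Peaks covered 100% of the MIR402 gene (309 bp) in UV replicate 1, 63.4% (196 bp) in UV replicate 3, 67% (207 bp) in untreated replicate 1 and 46.9% (145 bp) in untreated replicate 2. The UV replicate 4 peak lay 813 bp beyond the end of MIR402, and UV replicate 2 had none.

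The 4 libraries shared a stretch of 43 bp, at 29016684 to 29016726, and the whole of it lay inside MIR402. Over all nuclear chromosomes, 21 separate stretches with a total of 3517 bp lay under peaks of at least 4 libraries. At the other 3 places no base was covered by 4 libraries. The most was 3 libraries over 57 bp at URT1, 2 over 122 bp at DML3 and 1 at RPL24A. UV replicate 1 was among the libraries counted at MIR402, URT1 and DML3, through the wide peaks that chose these genes. At RPL24A the only library was UV replicate 4, which chose it.

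Among 326 nuclear miRNA genes in the table, 2 were overlapped by a peak in any library. The share among all nuclear genes was 4.29%, and no allowance was made for gene length. One was MIR402, in 4 libraries, and the other MIR164b, in untreated replicate 1 alone, by a peak of the narrowest width at 287528 to 287656 on chromosome 5. MIR402 was chosen through the wide peak of UV replicate 1, which is 1 of its 4 libraries. MicroRNAs of the miR164 family target transcripts of NAC transcription factors.

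URT1 had peaks in UV libraries only. A single peak of 2783 bp in UV replicate 1, on chromosome 2 from 18792981 to 18795763, covered 91.5% of the gene. It began 117 bp inside one end of the gene and stopped 141 bp inside the other, so it followed the gene's extent closely. UV replicate 3 had 1 peak of 145 bp, the narrowest width of its list, and UV replicate 4 had 4 peaks of 135, 124, 172 and 212 bp. UV replicate 2 and both untreated libraries had none.

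The peaks of UV replicate 4 covered 643 bp, 21.1% of URT1, and lay at 18793232 to 18793366, 18793572 to 18793695, 18793840 to 18794011 and 18794333 to 18794544. Gaps of 205, 144 and 321 bp separated them, and all 4 fell in the lower-coordinate part of the gene, ending 1360 bp before its high-coordinate end. The peak of UV replicate 3, at 18793752 to 18793896, overlapped the third of them over the 57 bp from 18793840 to 18793896. From 18794545 to 18795763, over 1219 bp, UV replicate 1 was the only library with a peak.

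The wide URT1 peak had the 2nd highest score of 562 in UV replicate 1. Of the 4 small peaks in UV replicate 4, the one at 18793840 scored higher than 95.9% of its list and the others higher than 46.7% to 80.1%. The peak of UV replicate 3 scored higher than 16.9% of its list. Covered lengths were 2783, 0, 145 and 643 bp in UV replicates 1 to 4 and 0 bp in both untreated libraries. The mean was 893 ± 1290 bp with UV (SD, n = 4) against 0 without (n = 2), and 263 bp without UV replicate 1.

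RPL24A had 1 peak, in UV replicate 4. It lay on chromosome 2 at 15350464 to 15351385, spanned 922 bp or 52.8% of the gene, and was 4th of 677 by score. It began 196 bp inside the low-coordinate end of the gene and stopped 628 bp before the other end. The other 5 libraries had no peak there, so the UV mean of 231 ± 461 bp (SD, n = 4) rests on that library and is 0 without it. UV replicate 1, the library with the wide peaks at the 3 other places, had none at RPL24A.

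**Figure D2:**
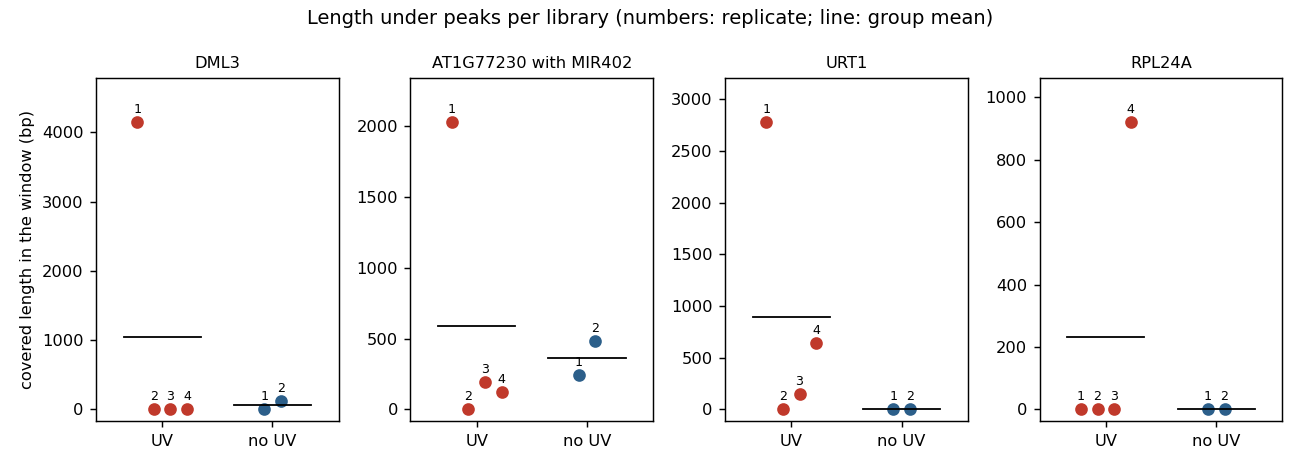
Length under peaks in bp (vertical axis, scaled per panel from 0) for each library, numbered by replicate, with the group mean as a line. UV replicate 1 stands above all other libraries at DML3, AT1G77230 with MIR402 and URT1, and UV replicate 4 at RPL24A, while the untreated libraries at AT1G77230 lie above UV replicates 2, 3 and 4.

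Small peaks of the other libraries fell where UV replicate 1 had its wide ones. At DML3, AT1G77230 and URT1 the other 5 libraries had 1, 6 and 5 peaks, and all of them lay wholly inside peaks of UV replicate 1. Every base these libraries covered there, 122, 772 and 731 bp, was also covered in UV replicate 1. The UV replicate 1 peaks filled 69.2%, 67.7% and 92.7% of the 3 windows examined, so much of the window was open to such an overlap. Outside UV replicate 1 and the RPL24A peak, the 12 peaks were 122 to 245 bp wide, and 5 of them had the narrowest width of their list.

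**Figure D3:**
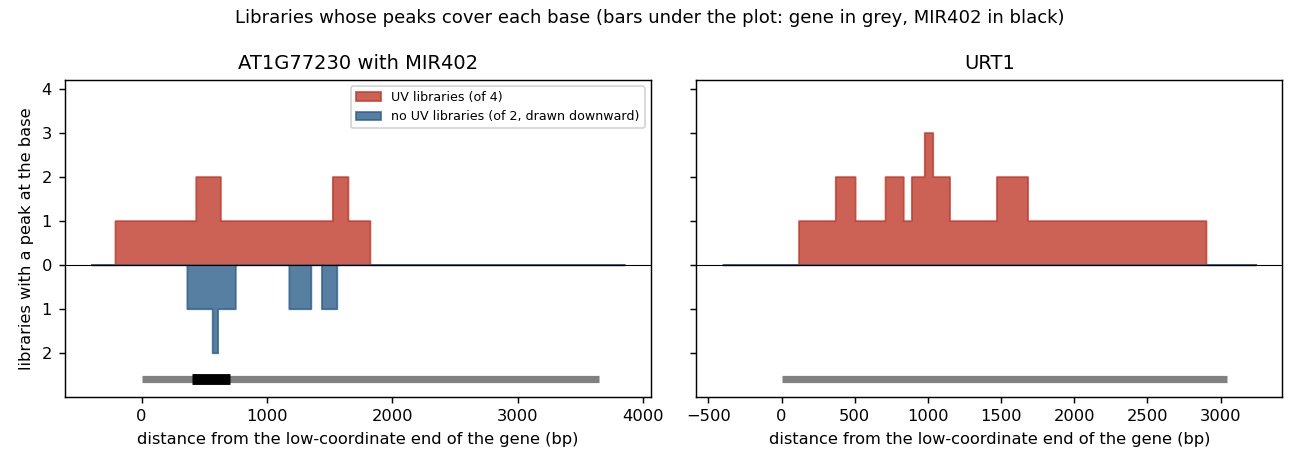
Number of libraries with a peak at each base of AT1G77230 with MIR402 (left) and URT1 (right), UV libraries upward in red and untreated libraries downward in blue, against distance from the low-coordinate end of the gene in bp. The 43 bp shared by 4 libraries lie over MIR402 (black bar), and the 57 bp at URT1 are shared by 3 UV libraries with none of the untreated ones.

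Of the 5 genes, the number overlapped by a peak was 4 in UV replicate 1, where the percentage of all nuclear genes overlapped was 0.816%, and 3 in UV replicate 4, against 0.95%. UV replicate 1 chose all 4 of its genes, so nothing follows from its count. UV replicate 4 chose RPL24A alone, and its other 2 genes, AT1G77230 and URT1, carried peaks of at most 212 bp there. In the libraries that held no wide peak, the counts were 0 in UV replicate 2 (0.314% of all nuclear genes), 3 in UV replicate 3 (0.773%), 2 in untreated replicate 1 (0.758%) and 3 in untreated replicate 2 (0.95%). AT1G77230 and MIR402 account for both genes of untreated replicate 1 and were joined by URT1 in UV replicate 3 and by DML3 in untreated replicate 2. Overlap with MIR402 is counted with that of its host, so the 2 are not separate observations.

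Longer genes have more room for a peak, and DML3, AT1G77230 and URT1 are all at least 3000 bp long. Among the 8355 nuclear genes of that length, 1.68% were overlapped in UV replicate 3, 1.72% in untreated replicate 1 and 1.96% in untreated replicate 2. Of the 3 long genes, 2, 1 and 2 were overlapped in those libraries. In UV replicate 2, where the share was 0.658%, none was. In UV replicate 4, which chose none of these 3, AT1G77230 and URT1 were overlapped, beside 2.02% of long genes. All 3 were overlapped in UV replicate 1 (1.78%), which chose them.

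Recurrence placed AT1G77230, MIR402 and URT1 among few genes. They were overlapped in at least 3 libraries, as were 19 of the 37887 nuclear genes (0.0501%), and among genes of at least 3000 bp this held for 9 (0.108%), AT1G77230 and URT1 included. AT1G77230 was overlapped in 5 libraries, and 6 nuclear genes (0.0158%) were overlapped in at least that many. URT1 was overlapped in 3 UV libraries and in neither untreated one, which held for 3 nuclear genes (0.00792%). A peak in at least 1 library of each group was found for 37 nuclear genes (0.0977%), among them AT1G77230, MIR402 and DML3. UV replicate 1 supplied 1 library to each of these counts, and the wide peak that chose the gene was in it.

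By covered length, DML3 ranked 1st, URT1 3rd and AT1G77230 4th among the 309 nuclear genes with a peak in UV replicate 1, where the median such gene had 147 bp covered. In UV replicate 4, RPL24A ranked 1st and URT1 3rd of 360, with a median of 124 bp. These high ranks, except that of URT1 in UV replicate 4, follow from the choice by peak width in the same list. In untreated replicate 2, AT1G77230 ranked 2nd of 360 with 481 bp, and in untreated replicate 1 it ranked 8th of 287 with 245 bp. It ranked 17th of 293 in UV replicate 3 and 68th of 360, at the median length, in UV replicate 4. URT1 ranked 34th in UV replicate 3 and DML3 32nd in untreated replicate 2, both with the median length of their list. The 4 windows together held 11.8% of all nuclear sequence under peaks in UV replicate 1 and 2.51% in UV replicate 4. They held 0.572% in UV replicate 3, 0 in UV replicate 2, and 0.454% and 0.886% in the untreated libraries. The shares in UV replicates 1 and 4 include the wide peaks that chose the genes.

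**Figure D4:**
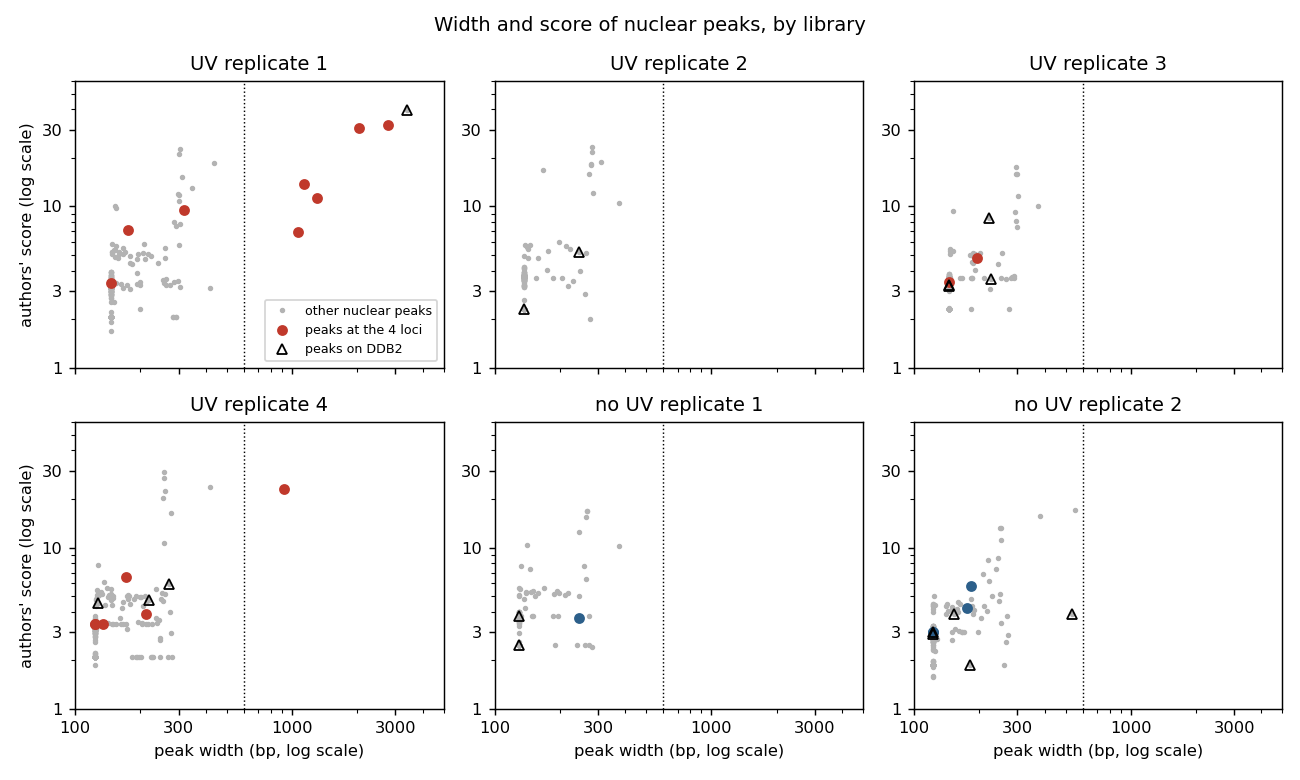
Width in bp (horizontal, log scale) against the authors' score (vertical, log scale) of nuclear peaks in each library, with peaks at the 4 loci as filled circles, peaks on DDB2 as open triangles and a dotted line at 600 bp. In UV replicate 1, 5 peaks of the 4 loci and 1 on DDB2 lie to the right of the line, in UV replicate 4 only the RPL24A peak does, and in the other 4 libraries none does.

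The width threshold fell in a gap between 551 and 922 bp. The narrowest peak above it was that of RPL24A, at 922 bp. The widest below it, 551 bp in untreated replicate 2, lay on chromosome 3 at 13591551 to 13592101, over no gene of the table. Next came a peak of 535 bp on DDB2 in untreated replicate 2, peaks of 439 and 421 bp on the non-coding RNA gene AT2G00340 in UV replicates 1 and 4, and one of 417 bp on the non-coding RNA gene AT3G06365 in UV replicate 1. No untreated library had a nuclear peak above 600 bp.

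The sequence around the 4 places held few peaks. Within 20 kb on each side there were 3, all in UV libraries and none in UV replicate 1. UV replicate 4 had one of 124 bp on STP14, a sugar transporter gene, 3858 bp from the AT1G77230 window, and one of 125 bp on SAP18, 5046 bp from the URT1 window. UV replicate 2 had one of 136 bp on AT2G36560, 19864 bp from the RPL24A window. The flanks of DML3 held no peak in any library.

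Flank sequence under peaks was 0, 136, 0 and 249 bp in UV replicates 1 to 4 and 0 bp in both untreated libraries. The mean was 96.3 ± 120 bp with UV (SD, n = 4) and 0 without (n = 2). A two-sided exact permutation test over the 15 splits gave p = 0.467 (n = 4 and 2), and 0.0667 is the smallest p this design allows. Most libraries had 0 bp, so with these values no split with UV higher gives a p below 0.467. The test therefore cannot decide whether the flanks differ. Without UV replicate 4 the difference was 45.3 bp. The windows were set around the wide peaks, so high coverage inside them was fixed by that choice. In UV replicate 1 peaks lay over 68.5% of the 4 windows and 0 of the 160000 bp of flank. In UV replicate 4 the shares were 12.9% of the windows and 0.156% of the flanks.

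**Figure D5:**
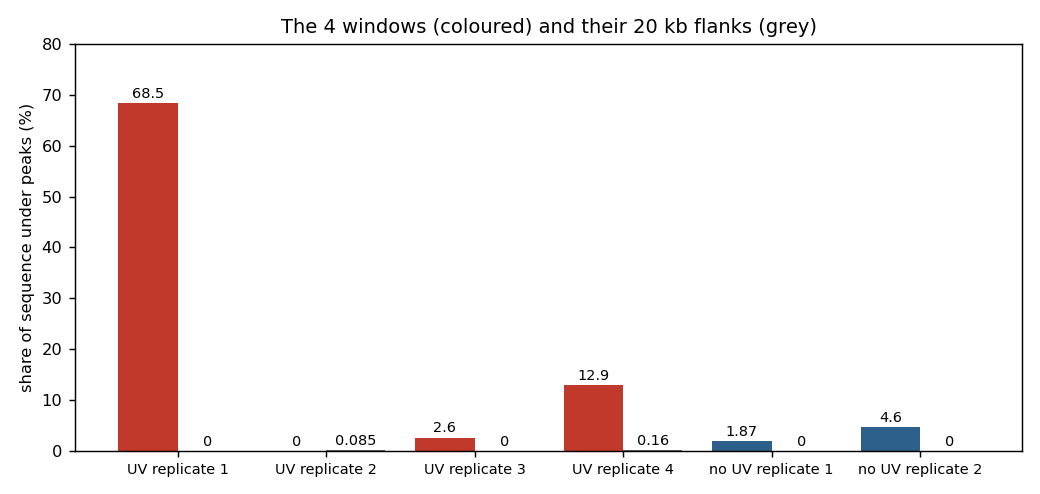
Share of sequence under peaks in % (vertical axis from 0) in the 4 windows (red with UV, blue without) and in the 20 kb on each side of them (grey), per library. UV replicate 1 reaches 68.5% in the windows and 0 in the flanks, and UV replicate 2 is the only library with a peak in the flanks and none in the windows.

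Genes that work in the same pathways as the 5 were looked up by identifier, and most had no peak, as did most nuclear genes, of which 4.29% had one in any library (9.23% of those of at least 3000 bp). Of the 4 DNA demethylase genes of the DEMETER family, DML3 alone had a peak, and ROS1 (listed as DML1), DME and DML2 had none in any library. Of 3 genes of the RPL24 family, RPL24A alone had one, and STV1, which encodes the RPL24B protein, and AT2G44860 had none. Among 7 genes of RNA uridylation and messenger RNA decay, URT1, DCP1 and XRN4 had a peak, and HESO1, DCP2, VCS and AHG2 had none. DML3, RPL24A and URT1 were chosen for their wide peaks, so a peak on each of them was fixed by that choice. HESO1 adds uridines to small RNAs, and DCP1 and XRN4 act in removal of the cap and in decay from the end it leaves.

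One of 8 DNA methylation genes, the methyltransferase gene CMT3, had a peak, and 1 of 6 genes of miRNA production and action, HYL1, whose protein helps to process miRNA precursors. The peaks on CMT3, HYL1, DCP1 and XRN4 each had the narrowest width of their list, and each was found in 1 library. That in HYL1 was in untreated replicate 1, that in CMT3 in UV replicate 1, and those in DCP1 and XRN4 in UV replicate 4. Leaving out the 3 of the 5 genes that these lists contain, 4 of 25 listed genes had a peak in any library, a larger share than either of those, and 21 of the 25 are at least 3000 bp long. With so few genes in each list these counts say little, and no test was made. With the 3 included, 7 of 28 listed genes had a peak, or 4 without UV replicate 4.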

How the data were processed

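Peak lists of 6 libraries were used. Per the file headers, the authors ran MACS2 on each library with pooled input as control and converted peaks from BED to GFF. The submitters' processing notes list CASAVA 1.8.2, Bowtie and MACS2 on TAIR10. Their settings are not stated. Each peak has a deposited score of unstated kind, used only for ranks within a list.

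Genes came from a RefSeq table of TAIR10.1. Equal nuclear coordinates with TAIR10 were assumed, and the table gives no strand, exons or introns. Coordinates printed are those of peaks, counted from 1. An overlap was at least 1 bp. Covered length is the number of bases of a window under at least 1 peak. Values were computed with Python 3.11.15, numpy 2.4.6 and pandas 2.3.3 and drawn with matplotlib 3.10.9. Gene overlap was tested on simulated data, where all 200 planted peaks were found. Those peaks lay wholly inside genes that overlap no other gene, so nested genes and peaks crossing a gene end were not tested. Flanks were compared by an exact permutation test, whose p-value reflects differences among libraries that may be technical replicates.

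Members, windows and gene lists were chosen with earlier results of these data known. Named were the 5 genes, genes under peaks in the flanks, listed genes with a peak, and genes at peaks 400 to 800 bp wide. Other genes of the lists were named after their values were seen. The second background of long genes was added after seeing the data. No sequence is printed, as no sequence was used here.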

Additional observations from a re-analysis of the deposited data

Results flagged for a closer look

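Of 11 per-library measures compared among the 4 UV libraries, 7 had 1 library far from the other 3. The usual rate of about 1 in 20 by chance does not apply to them, since peak width chose the genes, several measures follow from the same peaks, and counts with 3 equal values always come out this way. The list is therefore a description. UV replicate 1 stood apart in covered length at DML3 (4155 bp), in covered length at AT1G77230 with MIR402 (2032 bp), in the number of peaks at DML3 (6) and in the number of nuclear peaks wider than 600 bp (6). UV replicate 4 stood apart at RPL24A, with a covered length of 922 bp and 1 peak. UV replicate 2 stood apart at AT1G77230 with MIR402, with 0 peaks against 1 in each other UV library. At URT1 no UV library was that far from the rest.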

How the results depend on the processing

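The differences in covered length (UV minus no UV) turned in direction at DML3 and at AT1G77230 with MIR402 when UV replicate 1 was left out. Leaving out 1 library at a time gave -61 to 1324 bp at DML3, -256 to 421 bp at AT1G77230 with MIR402, 263 to 1190 bp at URT1, 0 to 307 bp at RPL24A and 45.3 to 128 bp in the flanks (exact permutation p = 0.4 to 1). Gene bodies in place of windows, with or without 500 bp on each side, wider peaks alone and higher-scoring peaks alone kept the direction of all 4 differences at the genes. Each of these settings keeps the wide peaks that chose the genes, all of them in UV libraries, so the direction was largely fixed by that choice. Flanks of 10 kb gave 62.3 bp (exact permutation p = 1) and of 50 kb 108 bp (exact permutation p = 0.0667, the smallest possible), with 122 bp in untreated replicate 2 and 136 to 249 bp in the UV libraries. With 10 or 20 kb most libraries had 0 bp, so the p-values at those sizes cannot decide. With 50 kb, UV replicates 1, 2 and 3 and untreated replicate 2 had 147, 136, 145 and 122 bp. Each of these values equals the narrowest width of its list, so their order follows those widths. The p-value at 50 kb therefore cannot decide either. Nuclear peaks above the width threshold numbered 7 at 600 bp, 12 at 400 bp, 9 at 500 bp and 7 at 800 bp, and 1 to 7 when 1 library was left out, the lowest without UV replicate 1. Listed genes with a peak fell from 7 to 3 among peaks scoring above the median of their list and numbered 4 to 7 when 1 library was left out. MiRNA genes with a peak fell from 2 to 1 in the first case and numbered 1 to 2 in the second, the lower without untreated replicate 1. Groups share replicate numbers 1 and 2, which the labels tie to no shared batch. Deviations of gene overlap from the group means correlated by 0.0035 and 0.028 between equal numbers, over 1624 genes. With only 2 untreated libraries, the same UV libraries give values of equal size and opposite sign with unequal numbers. These correlations therefore cannot decide whether equal numbers belong together. A replicate block on these numbers uses replicates 1 and 2 of each group and leaves out UV replicates 3 and 4. The differences were then 2017 bp at DML3, 653 bp at AT1G77230 with MIR402, 1392 bp at URT1, 0 at RPL24A and 68 bp in the flanks. UV replicate 1 is here 1 of only 2 UV libraries, and the only RPL24A peak, in UV replicate 4, is left out. These values therefore differ from those over all libraries by the libraries used as well. Read depth is unknown, so a gene without a peak in a list, such as any of the 5 in UV replicate 2, is not shown to lack lesions.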
